A study of Mus musculus with 9 samples.

Results

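The 10 genes described here are known from antigen-presenting cells, B cells and lymphoid progenitors, and were read in mouse CD8+ T cells, the cytotoxic arm of adaptive immunity: Cd74, Ciita, H2-Aa and H2-Ab1 of the major histocompatibility complex (MHC) class II pathway, Cd22, Cd79b and Ebf1 of the B lineage, and Dntt, Rag1 and Cd7 of lymphoid progenitors. They are 10 of the 24391 genes listed in the count tables and were picked by symbol because of how they read out in LSD1i against NT libraries, so their own values in that contrast are a description: no p-value is given for them, and calls of edgeR among them are counted without any support being drawn from the counts. The study used RNA sequencing of CD8+ T cells to compare cells treated with an inhibitor of LSD1 with untreated cells. LSD1 is a histone demethylase encoded by Kdm1a, and the series title places the question in adoptive T cell therapy. There were 4 libraries of treated cells (LSD1i) and 5 of untreated cells (NT). Both groups were activated for 72 h in complete RPMI medium with 100 U/mL of interleukin 2. The labels name neither the inhibitor, its dose, the agent used for activation, nor the strain, sex or age of the mice. Nor do they tell whether each replicate is another mouse or culture, and p-values therefore reflect no more than the scatter of the libraries, which may be technical.

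The deposited batch-corrected and raw count tables disagreed on 4 library names. The libraries that the raw table calls LSD1i 1, LSD1i 2, NT 1 and NT 2 held the same genes at 0 as those that the batch-corrected table calls NT 1, NT 2, LSD1i 1 and LSD1i 2, and the other 5 libraries were named alike. All values below use the names of the batch-corrected table unless the raw names are stated, and no expression value was used to decide which table names them rightly. Replicates 1 and 2 of both groups formed one set and replicates 3 to 5 another, as read from the size of the authors' correction, and the labels name no batch. Raw totals ran from 17803528 to 21852312 reads in LSD1i and from 15163983 to 29245278 reads in NT. The ribosomal RNA gene Rn45s took 1.67% to 2.54% of the reads in LSD1i and 1.96% to 2.87% in NT 2 to 5, and NT 1 stood apart with 13.4%.

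MHC class II molecules are pairs of an alpha and a beta chain that show peptides to CD4+ T cells. CD74, the invariant chain, fills the peptide groove of new pairs until proteases trim it away in endosomes, and CIITA is the coactivator that switches the pathway on at promoters that carry X and Y boxes. Mouse T cells are known for making little or no class II, unlike B cells and dendritic cells. In the B lineage, CD79B is a signalling chain of the B cell receptor, CD22 is an inhibitory receptor for sialylated glycans, and EBF1 is the transcription factor that specifies the lineage. In progenitors that rearrange antigen receptor genes, RAG1 is part of the recombinase that cuts the DNA, the product of Dntt (terminal transferase, TdT) adds bases at the joints, and CD7 is a surface glycoprotein of early T and NK cells that mature T cells also carry.

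Of the 10 genes, 7 had enough reads to pass the low-count filter of edgeR, and Ciita, H2-Aa and Rag1 did not. At an adjusted p under 0.05 of edgeR's quasi-likelihood test, 4 were called higher in LSD1i (Cd74, Cd22, Dntt and Cd7), 2 were called lower (Cd79b and Ebf1), and H2-Ab1 was not called. Over all 11981 genes tested, 3.31% were called, 2.15% higher and 1.16% lower, and since the contrast chose the 10 genes nothing is read from their share. The groups did not overlap in 6 of the 7, against 7.73% of all genes tested (4.69% higher and 3.04% lower in LSD1i). Nothing is read from this count either, for the same reason. Cd22 and Ebf1 also passed the filter only through the group where they were higher. In bulk RNA, a change in the number of cells that make a transcript and a change in the RNA per cell cannot be told apart.

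**Figure D1:**
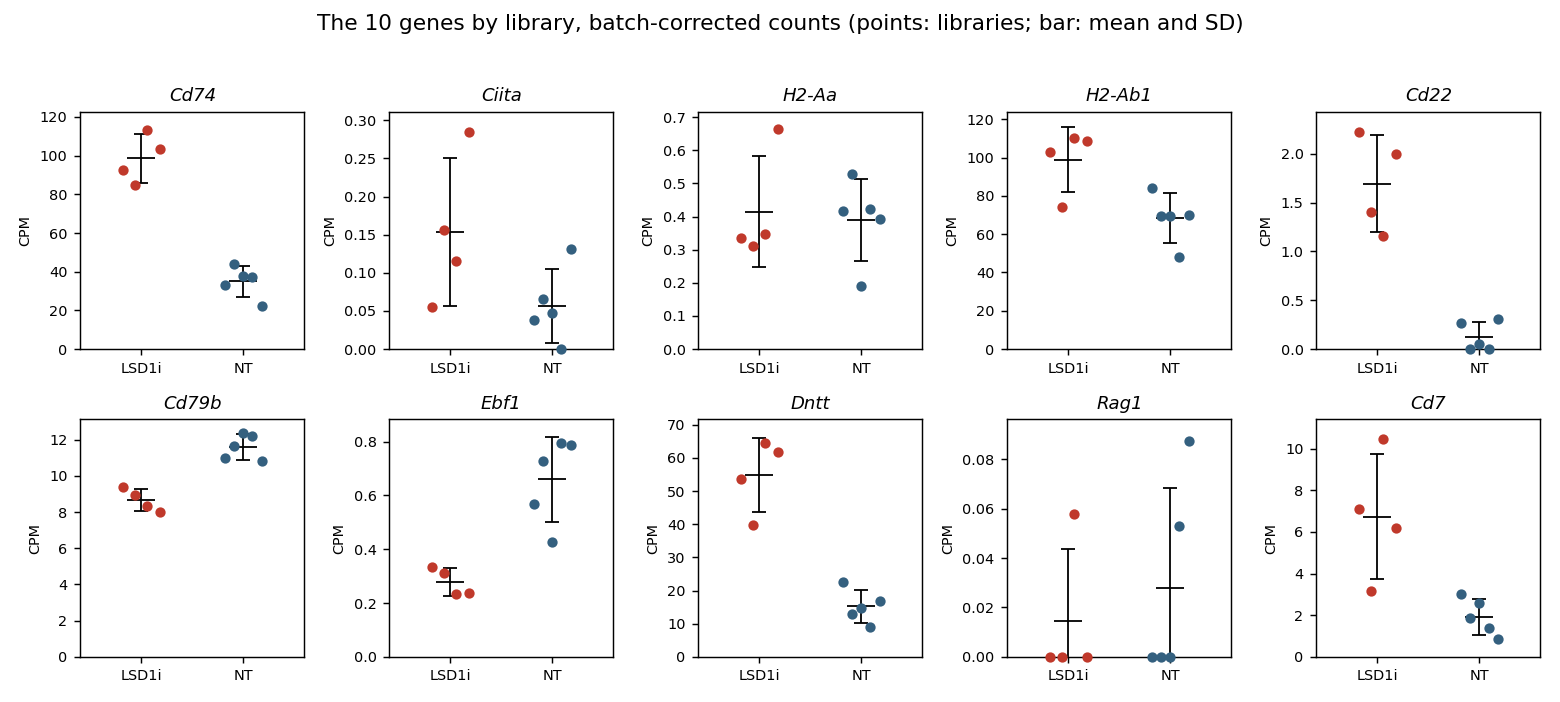
Counts per 1000000 (CPM, batch-corrected table, TMM-scaled) of the 10 genes, 1 panel per gene with its own linear axis from 0; points are the 4 LSD1i libraries on the left and the 5 NT libraries on the right, and the bars are mean and SD. The LSD1i points of Cd74, Cd22, Dntt and Cd7 all lie above the NT points, those of Cd79b and Ebf1 all lie below, and the groups overlap in the other 4 panels.

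Cd74 had the highest level of the 10 genes per kilobase of exon in LSD1i, and was next to H2-Ab1 in NT. It was read at 92.8, 84.7, 113 and 103 CPM in LSD1i 1 to 4, against 33.1, 44.2, 37.9, 37.2 and 22.5 CPM in NT 1 to 5. Every LSD1i library lay above every NT library, and the lowest LSD1i value (84.7 CPM) was well clear of the highest NT value (44.2 CPM). The means were 98.6 ± 12.5 CPM in LSD1i (SD, n = 4) and 35.0 ± 8.04 CPM in NT (SD, n = 5), a 2.82-fold ratio and a fitted log2 fold change of 1.49 ± 0.16 (SE).

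H2-Ab1, the beta chain of the class II molecule I-A, stood at 103, 74.3, 110.4 and 108 CPM in LSD1i 1 to 4, against 84.2, 69.5, 69.7, 47.9 and 69.9 CPM in NT 1 to 5. The groups overlapped, since LSD1i 2 fell among the NT libraries and below NT 1. The means were 99.0 ± 16.8 CPM in LSD1i and 68.3 ± 13.0 CPM in NT (SD, n = 4 and 5), with a log2 fold change of 0.53 ± 0.16 (SE).

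The partner chain of H2-Ab1 was close to the limit of detection. H2-Aa, the alpha chain of I-A, had 6, 6, 6 and 14 batch-corrected counts in LSD1i 1 to 4, against 11, 8, 4, 8 and 9 in NT 1 to 5. Its means were 0.415 ± 0.167 CPM in LSD1i and 0.391 ± 0.123 CPM in NT (SD, n = 4 and 5), and the groups overlapped. Per kilobase of exon, H2-Ab1 was at 38.5 CPM in LSD1i and 26.6 CPM in NT, and H2-Aa at 0.109 CPM in LSD1i and 0.103 CPM in NT. Within single libraries the level of H2-Ab1 per kilobase was 241 to 470 times that of H2-Aa in LSD1i and 167 to 541 times in NT, so the pair was read in very unequal amounts in every library, treated or not.

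Ciita, the coactivator named above, had 1, 3, 2 and 6 counts in LSD1i 1 to 4, against 1, 1, 1, 0 and 3 counts in NT 1 to 5. These sum to 12 counts in LSD1i and 6 in NT, at or under 3 counts in every library but LSD1i 4, and no fold is given. Ciita overlaps Dexi on the opposite strand, which had up to 221 counts in a library, and with strand use not stated even these few reads cannot be assigned to Ciita with certainty. Cd74 and H2-Ab1 were therefore read at 22.5 CPM or more in every library, where Ciita was at or near 0.

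The promoter of H2-Aa is printed because it holds the class II boxes through which CIITA is recruited. It runs from 250 bases before to 50 bases after the start, on the minus strand of chr17:34287774-34288073 (RefSeq, GRCm38.p6), and the capitals mark an X2 box (TGACGTCA, 74 to 67 bases before the start) and a Y box (ATTGG, 48 to 44 bases before it).
H2-Aa: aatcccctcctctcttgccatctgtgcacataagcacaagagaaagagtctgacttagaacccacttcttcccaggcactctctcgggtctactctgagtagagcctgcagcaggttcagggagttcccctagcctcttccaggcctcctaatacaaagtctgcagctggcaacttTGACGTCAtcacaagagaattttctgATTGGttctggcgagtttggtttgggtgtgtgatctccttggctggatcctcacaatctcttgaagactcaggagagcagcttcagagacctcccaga
Searched on both strands, TGACGTCA was found in 1.79% and ATTGG in 37.4% of the 32851 RefSeq promoters of this length, and both together in 0.642%. A match is a description of the letters and not evidence of binding. Of the 10 genes, 5 had a promoter entry (H2-Aa, Cd22, Ebf1, Dntt and Rag1), and Cd74, Ciita, H2-Ab1, Cd79b and Cd7 had none. Among those 5, the letters ATTGG also occurred in Rag1, and TGACGTCA occurred in H2-Aa alone.

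**Figure D2:**
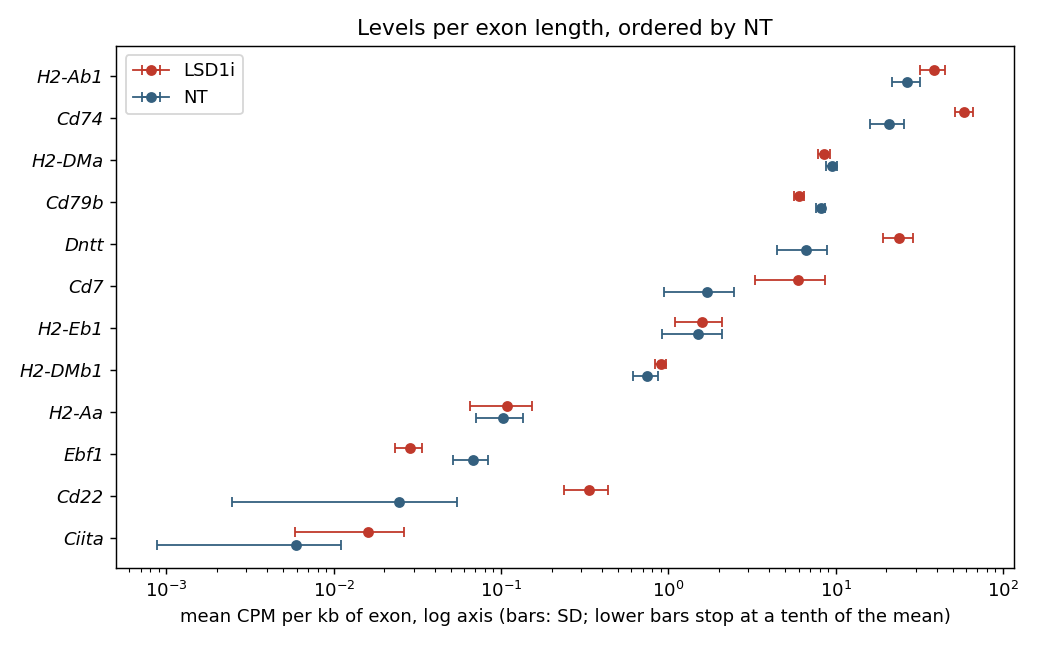
Mean level per kilobase of exon (horizontal log axis, CPM per kb) in LSD1i (upper point of each pair, n = 4) and NT (lower point, n = 5) of 9 of the 10 genes and 3 other class II genes (H2-DMa, H2-DMb1 and H2-Eb1), ordered by the NT level; bars are SD and their lower ends stop at 0.1 of the mean, and Rag1 is left out. H2-Ab1 and Cd74 lead in both groups, while H2-Aa, Ebf1, Cd22 and Ciita sit under 0.4 CPM per kb.

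Ranked by level per kilobase, Cd74 came first in LSD1i at 58.7 ± 7.45 CPM per kb and H2-Ab1 came next at 38.5 ± 6.53 (SD, n = 4). In NT the order was the other way round, with Cd74 at 20.8 ± 4.79 CPM per kb and H2-Ab1 at 26.6 ± 5.06 (SD, n = 5). In NT these neighbours differed by about their spread, and Cd74 was the higher of them in NT 4. Dntt followed in LSD1i at 23.95 ± 4.85 CPM per kb, against 6.66 ± 2.19 in NT. Cd79b and Cd7 were neighbours in LSD1i, at 6.06 ± 0.427 and 5.95 ± 2.66 CPM per kb, and did not differ beyond their spread there. In NT the same genes stood at 8.11 ± 0.496 and 1.71 ± 0.762 CPM per kb. The other 5 genes lay under 0.4 CPM per kb in both groups, with Rag1 lowest at 0.00219 in LSD1i and 0.00424 in NT.

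Among the B lineage genes, Cd22 had the largest fold. It was read at 2.23, 1.40, 1.16 and 1.99 CPM in LSD1i 1 to 4, which is 40, 27, 20 and 42 counts. In NT 1 to 5 it had 7, 0, 1, 0 and 7 counts, at most 0.306 CPM. All LSD1i libraries lay above all NT libraries, and NT 2 and NT 4 held no read, which allows up to 0.198 and 0.159 CPM (3 counts, counting error only). The means were 1.70 ± 0.498 CPM in LSD1i and 0.124 ± 0.150 CPM in NT (SD, n = 4 and 5), and the log2 fold change was 3.52 ± 0.54 (SE). That fold rests on 129 counts in LSD1i and 15 in NT, and it ran from 3.24 without NT 4 to 4.05 without NT 5. Per kilobase Cd22 reached 0.336 CPM in LSD1i, far under Cd74.

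The promoter of Cd22 is printed for an EBF-type palindrome close to its start. It lies on the minus strand of chr7:30878979-30879278 (RefSeq, GRCm38.p6, 250 bases before to 50 after the start), and the capitals mark TCCCTGGGGA, 49 to 40 bases before the start.
Cd22: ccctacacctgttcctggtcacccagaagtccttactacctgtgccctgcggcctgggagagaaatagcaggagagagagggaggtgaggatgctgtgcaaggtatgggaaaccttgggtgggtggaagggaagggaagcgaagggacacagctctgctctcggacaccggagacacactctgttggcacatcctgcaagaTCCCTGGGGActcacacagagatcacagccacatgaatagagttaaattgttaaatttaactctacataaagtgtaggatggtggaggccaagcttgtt
The pattern of TCCC, any 2 bases and GGGA, searched on both strands, was present in 0.904% of the 32851 promoters and, of the 5 genes with an entry, in Cd22 alone. Nothing about the factor follows from this, and Ebf1 itself was low in these libraries.

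Cd79b was lower in LSD1i, by a small and even margin. It was read at 9.40, 8.93, 8.35 and 8.03 CPM in LSD1i 1 to 4, against 11.0, 11.6, 12.4, 12.2 and 10.8 CPM in NT 1 to 5. The groups did not overlap, and the means were 8.68 ± 0.611 CPM in LSD1i and 11.6 ± 0.7097 CPM in NT (SD, n = 4 and 5), with a log2 fold change of -0.43 ± 0.09 (SE). Ebf1 had 6, 6, 4 and 5 counts in LSD1i 1 to 4, against 15, 11, 9, 15 and 18 counts in NT 1 to 5. Every LSD1i count was under every NT count, and the fitted log2 fold change was -1.23 ± 0.30 (SE), from 21 counts in LSD1i and 68 in NT. Cd22 was therefore higher in LSD1i while Cd79b and Ebf1 of the same lineage were lower.

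Dntt had the highest level of the progenitor genes per kilobase in both groups. It stood at 53.7, 39.7, 64.4 and 61.7 CPM in LSD1i 1 to 4, against 22.7, 13.1, 14.8, 9.04 and 16.7 CPM in NT 1 to 5. The lowest LSD1i library, LSD1i 2, was still above the highest NT library, NT 1. The means were 54.9 ± 11.1 CPM in LSD1i and 15.3 ± 5.02 CPM in NT (SD, n = 4 and 5), a 3.60-fold ratio and a log2 fold change of 1.83 ± 0.23 (SE).

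Cd7 varied more from library to library. It was read at 7.12, 3.17, 10.5 and 6.17 CPM in LSD1i 1 to 4, against 2.997, 1.85, 2.57, 1.38 and 0.874 CPM in NT 1 to 5. The groups did not overlap, but LSD1i 2 at 3.17 CPM was only just above NT 1 at 2.997 CPM. The means were 6.74 ± 3.02 CPM in LSD1i and 1.93 ± 0.863 CPM in NT (SD, n = 4 and 5), and the log2 fold change was 1.78 ± 0.37 (SE). In the raw counts the groups of Cd7 overlapped, since LSD1i 2 stood at 2.65 CPM and NT 3 at 3.48 CPM. Its coefficient of variation (batch-corrected) was 44.8% in LSD1i and 44.7% in NT, against 12.7% in LSD1i and 23.0% in NT for Cd74, and 7.04% in LSD1i and 6.12% in NT for Cd79b.

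Rag1 had 1 count in LSD1i 3 and none in the other LSD1i libraries, against 1 count in NT 4, 2 counts in NT 5 and none in the other NT libraries. All values were at or under 3 counts, so no fold is given. The recombinase partner Rag2 reached at most 0.0580 CPM in any library. Dntt was thus read at 9.04 CPM or more in every library, where both recombinase genes were at or near 0.

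By batch-corrected CPM, LSD1i 2 was the lowest of the 4 LSD1i libraries for Cd74, H2-Ab1, Dntt and Cd7, and LSD1i 3 was the highest for the same 4 genes. Among NT libraries, NT 4 was lowest for H2-Ab1 and Dntt and NT 5 for Cd74 and Cd7. NT 1 was highest for H2-Ab1, Dntt and Cd7 and NT 2 for Cd74. In raw CPM the order of Cd74 was another, with LSD1i 1 highest (119 CPM) and LSD1i 4 lowest (81.0 CPM). H2-Ab1, Dntt and Cd7 kept the same highest and lowest LSD1i library there. Among NT libraries in raw CPM, NT 5 was highest for H2-Ab1 and Dntt, NT 3 was highest for Cd7, and NT 2 was lowest for H2-Ab1. The share of Rn45s reads in LSD1i 2 (2.54%) was like that of LSD1i 1 (2.52%), and the part of depth or RNA composition in the order of the libraries was not tested.

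The folds were next read within each set of replicates, on the raw counts with the names of the batch-corrected table. For Cd74 the log2 fold change was 1.82 ± 0.26 in replicates 3 to 5 and 1.25 ± 0.16 in replicates 1 and 2 (SE). For Dntt it was 2.35 ± 0.31 in replicates 3 to 5 and 1.48 ± 0.24 in replicates 1 and 2. Cd7 gave 2.57 ± 0.52 in replicates 3 to 5 and 1.18 ± 0.39 in replicates 1 and 2. The folds of these 3 genes were the larger ones in replicates 3 to 5. H2-Ab1 gave 0.77 ± 0.15 in replicates 3 to 5 and 0.13 ± 0.24 in replicates 1 and 2. Cd22 gave 3.65 ± 0.75 in replicates 3 to 5 and 3.48 ± 0.80 in replicates 1 and 2, and Cd79b gave -0.50 ± 0.15 in replicates 3 to 5 and -0.29 ± 0.20 in replicates 1 and 2. The size was the larger one in replicates 3 to 5 for all 6, the set whose names are the same in both tables. Both sets are parts of the libraries whose contrast chose the genes, so these folds are no independent support.

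Whether the effect differed between the sets was tested with the interaction of group and replicate set in edgeR's quasi-likelihood test, a measure that did not choose the genes. None of the 6 passed, the lowest adjusted p being 0.764. The log2 difference (replicates 3 to 5 minus replicates 1 and 2) was 0.54 ± 0.35 for Cd74 and 0.61 ± 0.29 for H2-Ab1 (SE). It was 0.84 ± 0.44 for Dntt, 1.35 ± 0.76 for Cd7, 0.13 ± 1.35 for Cd22 and -0.24 ± 0.23 for Cd79b (SE). Over all 11916 genes tested, 0 were called (0%) and 581 had an unadjusted p under 0.05 by the same test; DESeq2 was not run on this interaction. Without NT 2, 401 genes were called, and 320 were without the low-count filter, with 0 of the 10 genes among them in either case. A p that misses the threshold does not show that the sets responded alike.

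**Figure D3:**
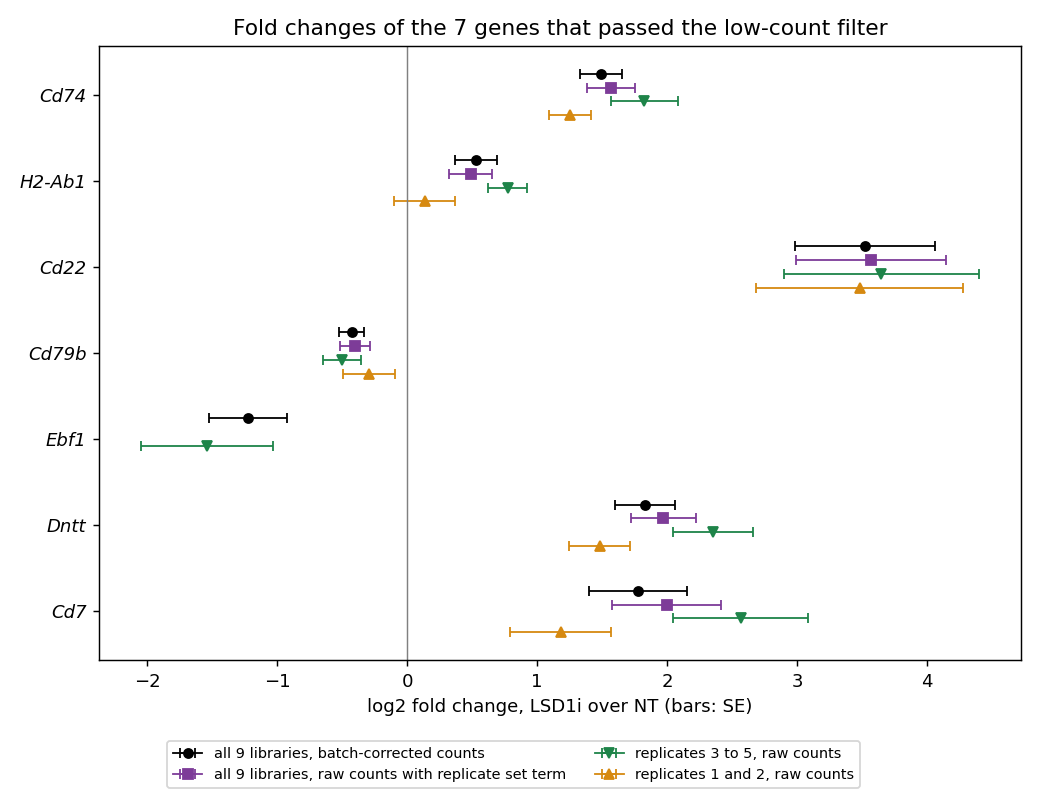
Log2 fold change of LSD1i over NT (horizontal axis, bars SE) of the 7 genes that passed the low-count filter, from all 9 libraries of the batch-corrected table, from raw counts with a term for the replicate set, and from replicates 3 to 5 and replicates 1 and 2 alone. Points of Cd74, Cd22, Dntt and Cd7 lie right of 0 in all 4 fits and those of Cd79b left of 0; Ebf1 passed the filter in 2 of the fits.

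Values under the other naming of the libraries were then set beside these. With the raw table read under its own names, the log2 fold change was 0.12 for Cd74, 0.38 for H2-Ab1, -0.43 for Cd22, -0.11 for Cd79b, 1.00 for Dntt and 1.33 for Cd7, and edgeR called 0 of all genes and 0 of the 10 (172 genes, and 0 of the 10, had an unadjusted p under 0.05, and DESeq2 was not run on this naming). H2-Ab1, Dntt and Cd7 thus kept more of their size under the raw names than Cd74 and Cd79b did, and Cd22 reversed. The fit under the raw names used uncorrected counts and no term for the replicate set. Under the batch-corrected names, raw Dntt was at 36.6, 31.8, 86.1 and 80.6 CPM in LSD1i 1 to 4. Raw Cd74 was at 119, 116, 92.4 and 81.0 CPM there. The part of the replicate sets in what was kept was not tested. In replicates 1 and 2 alone, edgeR called 0 of the 10, against 0.0676% of all genes tested. In replicates 3 to 5 alone, where the names do not differ, Cd74 and Dntt were called on 2 LSD1i and 3 NT libraries, against 0.969% of 12078 genes tested (0.803% higher and 0.166% lower). With raw counts, the names of the batch-corrected table and a term for the replicate set, Cd74, Cd22, Dntt and Cd7 were called, against 1.85% of all genes tested (1.39% higher and 0.453% lower). Single libraries decided some of the calls. Leaving out LSD1i 1, LSD1i 3, LSD1i 4, NT 2 or NT 4 ended the call of Cd7. Leaving out any 1 LSD1i library, NT 2, NT 3 or NT 4 ended that of Cd79b, and leaving out any 1 LSD1i library ended that of Ebf1, which did not pass the filter without NT 1, NT 2, NT 4 or NT 5. H2-Ab1 was called without LSD1i 2 or NT 1.

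**Figure D4:**
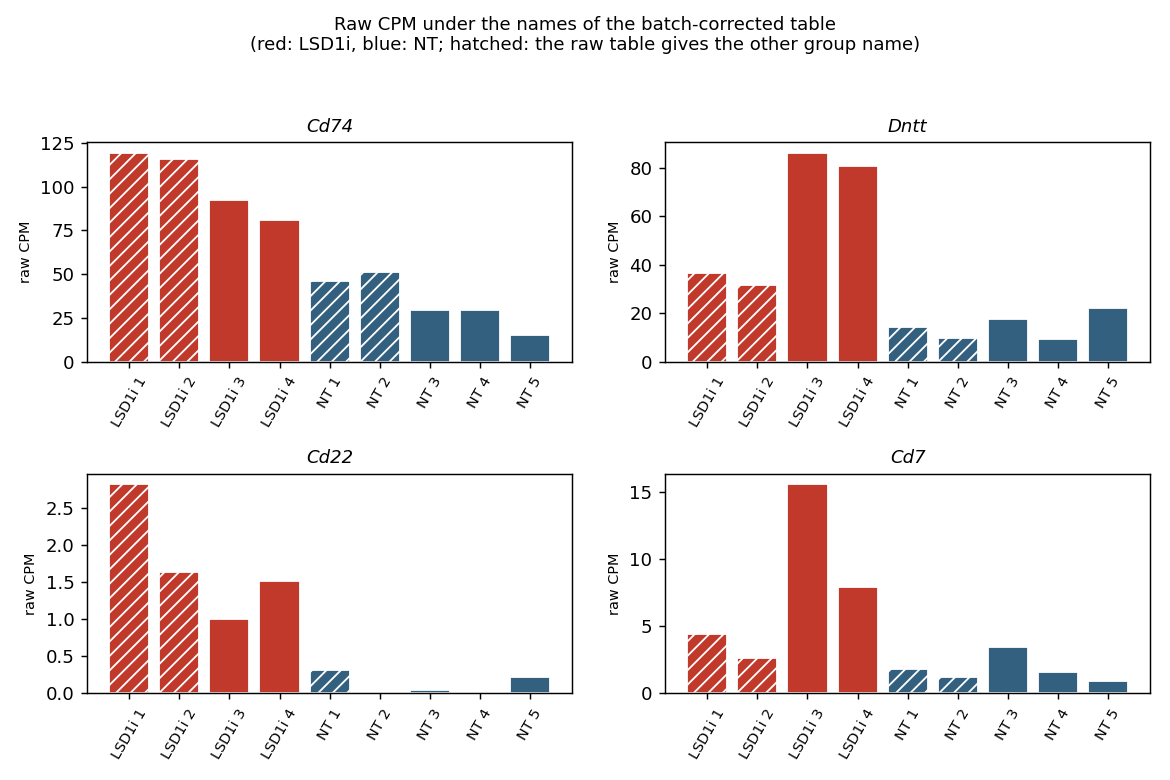
Raw CPM (linear axes from 0, TMM-scaled, no batch correction) of Cd74, Dntt, Cd22 and Cd7 in each library under the names of the batch-corrected table, 1 bar per library, with LSD1i in red on the left and NT in blue on the right; hatched bars are the 4 libraries that the raw table puts in the other group. The groups of Cd7 overlap as drawn. Exchanging the hatched bars makes those of Cd74, Dntt and Cd22 overlap as well.

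The authors' deposited table of LSD1i against NT listed 20052 genes, with 94 marked as up and 44 as down. In the authors' deposited table, Cd74 (log2 fold change 1.497), Cd22 (3.52), Dntt (1.84) and Cd7 (1.79) carried the mark for up and the other 6 genes carried none. The authors' deposited table gave -0.42 for Cd79b and -1.22 for Ebf1, without a mark. The smallest marked log2 fold change was 1.201 in size, and H2-Ab1 (0.54) and Cd79b lay under it. The calls made here had no limit on fold size, so marks and calls are not counted alike.

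Genes of the same pathways that were not among the 10 were tested in the same fit, from 13 lists put together with earlier results of these data known. Of 118 such genes that passed the filter, 10 rose and 0 fell (8.47% called, against 3.31% of all genes). Genes could have been listed because of those earlier results. Nothing is therefore read from this share, nor from the shares and medians of single lists below. In the class II list, 3 of 20 tested genes rose, with a median log2 fold change of 0.13 against -0.02 over all genes. They were Ctss, Lgmn and Sppl2a. Ctss encodes cathepsin S, the protease that trims the invariant chain. It was at 97.5, 107.7, 99.4 and 105 CPM in LSD1i 1 to 4, against 57.2, 58.6, 63.6, 56.9 and 49.5 CPM in NT 1 to 5. The groups were far apart, with a log2 fold change of 0.83 ± 0.08 (SE, edgeR adjusted p = 0.00019).

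Lgmn encodes legumain, an endosomal protease that takes part in the early cleavage of CD74, and it was low: 2.73, 4.36, 1.51 and 3.89 CPM in LSD1i 1 to 4, against 0.417, 0.924, 0.81, 0.688 and 1.00 CPM in NT 1 to 5. All LSD1i libraries lay above all NT libraries, and the log2 fold change was 2.03 ± 0.33 (SE, edgeR adjusted p = 0.00543). Sppl2a encodes the membrane protease that clears the last fragment of CD74. It was at 145.9, 152, 145 and 139 CPM in LSD1i 1 to 4, against 112, 109.7, 111, 118 and 110.3 CPM in NT 1 to 5. The groups did not overlap, though the step was small, with a log2 fold change of 0.37 ± 0.07 (SE, edgeR adjusted p = 0.00997). Ctsl, which encodes cathepsin L, another protease of the invariant chain, was not called, with a log2 fold change of 0.23 ± 0.11 (edgeR adjusted p = 0.394). Of the genes of the peptide exchange factor H2-DM, H2-DMa stood at 29.5 ± 2.32 CPM in LSD1i and 32.6 ± 2.38 CPM in NT, and H2-DMb1 at 1.51 ± 0.12 CPM in LSD1i and 1.24 ± 0.217 CPM in NT (SD, n = 4 and 5), with overlapping groups. H2-DMb2, the other beta chain gene, stood at 1.67 ± 0.463 CPM in LSD1i and 2.87 ± 0.43 CPM in NT, with no overlap and a log2 fold change of -0.78 ± 0.20. None of the 3 was called (edgeR adjusted p = 0.476, 0.606 and 0.0662), and reads of the similar beta chain genes could be split between them. H2-Oa and H2-Ob of the same list were higher in LSD1i with no overlap, and were not called. Their log2 fold changes were 0.48 ± 0.16 and 0.50 ± 0.14 (edgeR adjusted p = 0.16 and 0.0787). Of the 20 tested genes of the class II list, 7 had an unadjusted p under 0.05 and DESeq2 called 5. Ctsl, the H2-DM genes, H2-Oa and H2-Ob were chosen after their values were seen.

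The promoters of Ctss and Sppl2a are printed because both carry, next to their starts, the tandem GAAA pattern bound by interferon regulatory factors, which was added to the search after these sequences were read. Ctss lies on the plus strand of chr3:95526536-95526835 and Sppl2a on the minus strand of chr2:126933186-126933485 (RefSeq, GRCm38.p6). The capitals mark the match, 21 to 12 bases before the start in Ctss and from 8 bases before to 1 base after it in Sppl2a.
Ctss: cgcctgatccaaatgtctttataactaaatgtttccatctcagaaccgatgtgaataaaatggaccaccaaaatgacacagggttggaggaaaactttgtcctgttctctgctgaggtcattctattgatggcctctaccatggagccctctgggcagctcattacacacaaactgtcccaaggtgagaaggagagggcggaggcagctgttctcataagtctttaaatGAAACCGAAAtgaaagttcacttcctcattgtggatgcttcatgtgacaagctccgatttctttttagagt
Sppl2a: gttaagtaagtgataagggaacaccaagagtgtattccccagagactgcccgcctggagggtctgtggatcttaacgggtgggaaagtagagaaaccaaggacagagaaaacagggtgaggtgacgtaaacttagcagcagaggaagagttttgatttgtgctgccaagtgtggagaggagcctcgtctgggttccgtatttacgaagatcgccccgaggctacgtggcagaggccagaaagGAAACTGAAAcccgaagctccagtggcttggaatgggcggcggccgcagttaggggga
The pattern of GAAA, any 2 bases and GAAA, on either strand, was present in 3.44% of the 32851 promoters. Lgmn, the other called gene of the class II list, held it in 0 of its 2 entries. Of the 5 genes with an entry, Ebf1, which was lower in LSD1i, also held it, in 1 of its 2 entries.

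The interferon gamma pathway, which switches Ciita on in many cell types, was read from 9 genes. None was called by edgeR's quasi-likelihood test (1 had an unadjusted p under 0.05, and DESeq2 called 0). Ifng, the cytokine itself, had a log2 fold change of -1.12 ± 0.37 (SE, edgeR adjusted p = 0.155). Irf1, a target factor, had 0.13 ± 0.09 (adjusted p = 0.582) and Jak2, a kinase bound to the receptor, 0.19 ± 0.16 (adjusted p = 0.69). Of 4 tested genes for partners of the CD74 protein, 0 were called by edgeR, 1 had an unadjusted p under 0.05 and DESeq2 called 1. Mif, the ligand of CD74, had a log2 fold change of 0.10 ± 0.09 (edgeR adjusted p = 0.72), its homologue Ddt 0.56 ± 0.14 (adjusted p = 0.0539) and the coreceptor Cxcr4 0.44 ± 0.21 (adjusted p = 0.384).

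Around Cd22, 1 of 9 tested genes of the B cell receptor and its inhibitors rose. This was St6gal1, the sialyltransferase that makes the glycan ligand of CD22. It was at 187, 147, 229 and 221 CPM in LSD1i 1 to 4, against 89.4, 51.0, 58.1, 35.8 and 64.2 CPM in NT 1 to 5. Every LSD1i library was above every NT library, and the log2 fold change was 1.70 ± 0.23 (SE, edgeR adjusted p = 0.00154). Plcg2 and Cd81 of the same list were not called, with log2 fold changes of -0.36 ± 0.13 and 0.06 ± 0.09 (edgeR adjusted p = 0.212 and 0.862). Ighm, Ighd, Igkc and Iglc1 were not analysed here.

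Of 8 tested genes of B lineage transcription and surface, 2 rose. Pou2af1, a coactivator of octamer-binding factors, was at 7.40, 6.23, 7.48 and 7.36 CPM in LSD1i 1 to 4, against 4.63, 3.43, 3.81, 3.17 and 3.63 CPM in NT 1 to 5 (log2 fold change 0.91 ± 0.14, edgeR adjusted p = 0.00339). Cd24a, a surface antigen of many immature blood cells, was at 62.9, 63.5, 73.5 and 72.2 CPM in LSD1i, against 48.3, 32.7, 37.9, 28.3 and 41.9 CPM in NT (log2 fold change 0.84 ± 0.14, edgeR adjusted p = 0.00807). In both genes the LSD1i libraries lay above the NT libraries. Tnfrsf13c, the receptor for the B cell survival factor BAFF, was not called, with a log2 fold change of -0.43 ± 0.18 (edgeR adjusted p = 0.287). Tcf3, which encodes the E2A factors that act with EBF1, gave -0.06 ± 0.10 (adjusted p = 0.875) and turned positive without LSD1i 3.

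Among progenitor and early thymocyte genes, 1 of 20 tested rose. This was Sox4, a transcription factor of early lymphocytes, at 4.39, 4.41, 3.02 and 3.51 CPM in LSD1i 1 to 4, against 1.06, 1.85, 1.38, 1.59 and 2.58 CPM in NT 1 to 5 (log2 fold change 1.17 ± 0.24, edgeR adjusted p = 0.0228). The groups did not overlap, but the call was lost without LSD1i 1, LSD1i 2, LSD1i 4, NT 3 or NT 4, with an adjusted p of up to 0.0825. It was also lost on raw counts, with the term for the replicate set (adjusted p = 0.0562) and without it (0.392). Lyl1 and Kit were not called, with log2 fold changes of -0.68 ± 0.19 and 1.10 ± 0.46 (edgeR adjusted p = 0.0878 and 0.297). Of 13 tested genes of V(D)J recombination and end joining, the machinery in which the products of Rag1 and Dntt work, 0 were called by edgeR, 1 had an unadjusted p under 0.05 and DESeq2 called 0. Nhej1, an end-joining factor, gave 0.47 ± 0.15 (adjusted p = 0.146), the ligase gene Lig4 -0.27 ± 0.13 (adjusted p = 0.347) and Hmgb2 0.17 ± 0.09 (adjusted p = 0.476). In the list of ligands and neighbours of CD7 on T and NK cells, the ligand genes Sectm1a and Sectm1b did not pass the filter. Of the 7 neighbours tested, 0 were called by edgeR, 2 had an unadjusted p under 0.05 and DESeq2 called 1. There Cd27, Cd2 and Cd6 gave 0.40 ± 0.12, -0.33 ± 0.15 and 0.15 ± 0.15 (edgeR adjusted p = 0.108, 0.314 and 0.755).

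**Figure D5:**
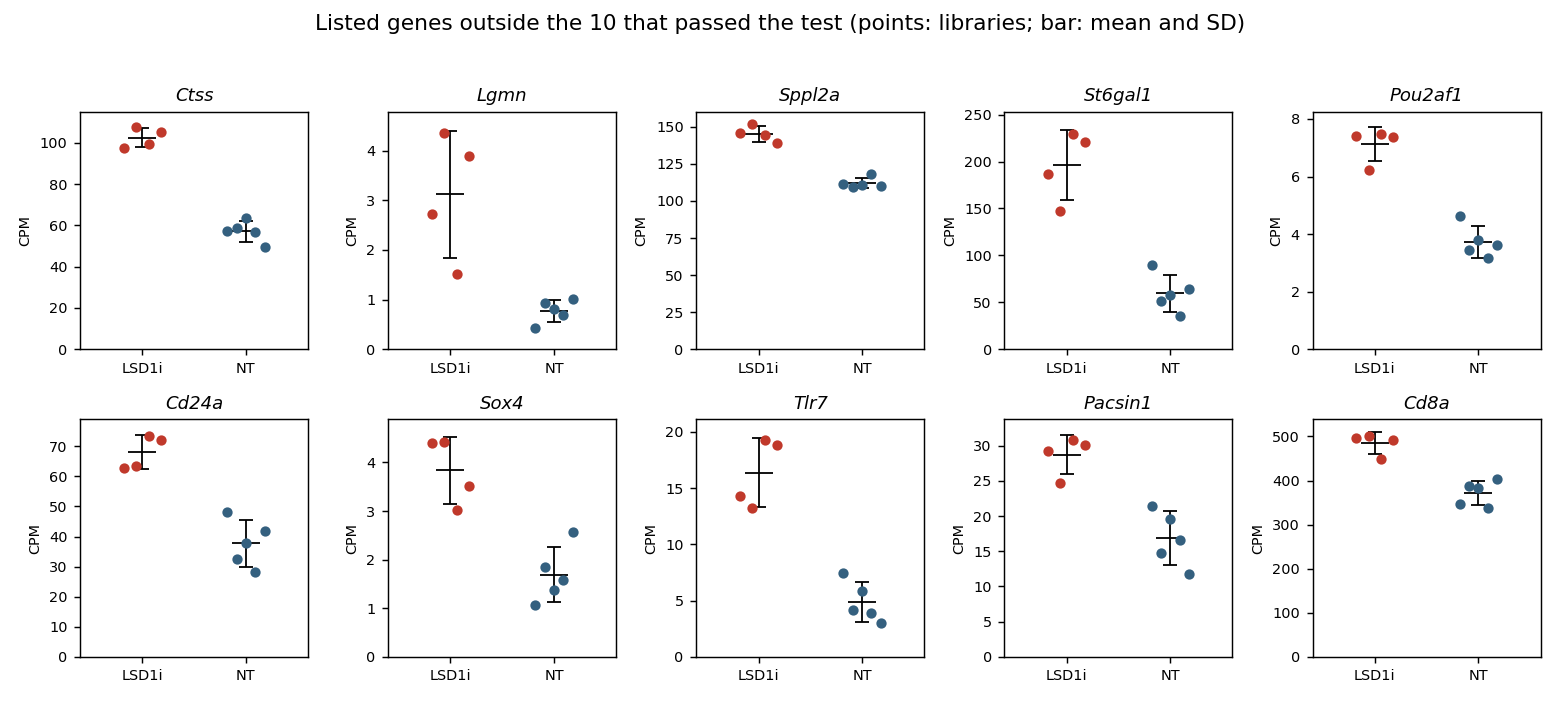
CPM (batch-corrected table, linear axes from 0) of the 10 listed genes outside the set of 10 that passed edgeR's test, 1 panel per gene; points are the 4 LSD1i libraries on the left and the 5 NT libraries on the right, and the bars are mean and SD. In all 10 panels every LSD1i point lies above every NT point.

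Markers of other cells that a CD8+ preparation could hold were read beside these results. The B lineage list of 26 genes summed to 306 to 385 CPM in LSD1i and 261 to 381 CPM in NT, with Tcf3, which T cells also make, the highest. In that list 18 genes were under 1 CPM in every library, and Vpreb2 and Igll1 were at 0 throughout. The defining B cell genes Ms4a1 (CD20), Pax5 and Cd79a reached at most 0.174, 0.0660 and 0.208 CPM in any library, each at 4 counts or fewer. Cd79b, at 8.03 CPM or more in every library, was thus read without its partner chain Cd79a, in LSD1i and NT alike.

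The list of conventional dendritic cell and macrophage markers summed to 41.3 to 68.9 CPM in LSD1i and 61.8 to 116 CPM in NT. In it 15 of 18 genes were under 1 CPM in every library, Cd209a, S100a8 and S100a9 were at 0, and Itgax (CD11c), Csf1r and Lyz2 reached 0.726, 0.0529 and 0.0475 CPM. Of its 4 tested genes edgeR called 0, 1 had an unadjusted p under 0.05 and DESeq2 called 1, and Batf3, the highest, had a log2 fold change of -0.86 ± 0.29 (edgeR adjusted p = 0.159). Zbtb46 and Cd68 gave -0.09 ± 0.18 and 0.01 ± 0.17 (adjusted p = 0.89 and 0.989), and both changed sign in some fits that left out 1 library.

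The plasmacytoid dendritic cell list summed to 709 to 749.5 CPM in LSD1i and 605 to 723 CPM in NT, and 2 of 9 tested genes rose. Tlr7, an endosomal RNA sensor that B cells also make, was at 14.3, 13.2, 19.3 and 18.8 CPM in LSD1i 1 to 4, against 7.43, 4.16, 5.81, 3.91 and 2.97 CPM in NT 1 to 5 (log2 fold change 1.74 ± 0.24, edgeR adjusted p = 0.00181). Pacsin1, a membrane-bending adaptor, was at 29.3, 24.7, 30.8 and 30.1 CPM in LSD1i, against 21.5, 14.8, 19.6, 16.6 and 11.8 CPM in NT (log2 fold change 0.76 ± 0.16, edgeR adjusted p = 0.0223). Its call was lost without LSD1i 1, LSD1i 3, LSD1i 4, NT 2 or NT 4, with an adjusted p of up to 0.0802. Irf8, the highest gene of the list, was not called, with a log2 fold change of 0.16 ± 0.07 (adjusted p = 0.36). The defining gene Siglech reached at most 0.0874 CPM, Klk1 and Cd209d were at 0, and 6 of 15 genes were under 1 CPM in every library. The part of such cells in the values of the 10 genes was not tested.

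Genes of CD4 and regulatory T cells summed to 1241 to 1690.0 CPM in LSD1i and 1163 to 1946 CPM in NT, mostly from Ctla4 and Il2ra, which activated CD8+ T cells also make, and Cd4 reached at most 0.232 CPM. Of 3 tested, edgeR called 0, 0 had an unadjusted p under 0.05 and DESeq2 called 0. Ctla4, Il2ra and Zbtb7b gave log2 fold changes of 0.23 ± 0.11, -0.39 ± 0.27 and 0.14 ± 0.14 (edgeR adjusted p = 0.361, 0.604 and 0.754). NK and innate-like lymphocyte genes summed to 42.8 to 93.6 CPM in LSD1i and 34.2 to 78.3 CPM in NT, with Ncr1 at 0 and 5 of 9 genes under 1 CPM in every library. Of 4 tested there, edgeR called 0, 2 had an unadjusted p under 0.05 and DESeq2 called 0. Il1rl1, Gata3, Zbtb16 and Rora gave -1.73 ± 0.58, -0.39 ± 0.17, -0.60 ± 0.37 and 0.50 ± 0.34 (edgeR adjusted p = 0.161, 0.305, 0.532 and 0.589).

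The CD8 label held in the data. The 12 genes of T cell identity summed to 3677 to 3809 CPM in LSD1i and 3268 to 3630.0 CPM in NT, and Cd8a was at 497.7, 502, 449 and 491 CPM in LSD1i 1 to 4, against 346, 387, 382 (NT 3), 339 and 405 CPM in NT. Cd8a rose, with a log2 fold change of 0.38 ± 0.08 (SE, edgeR adjusted p = 0.0266), while Cd8b1 and Cd247 were not called, with 0.27 ± 0.08 and 0.26 ± 0.08 (adjusted p = 0.104 and 0.134). The call of Cd8a was lost in 6 of the 9 fits that left out 1 library, with an adjusted p of up to 0.102, and on raw counts with the term for the replicate set (0.126) and without it (0.466).

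Genes whose pattern was most like that of Cd74 were found by the root mean square difference of log2(CPM + 1) profiles, centred on each gene's mean, among 9879 genes. Over all 9 libraries the nearest were Gfi1 (0.217), Pde6d (0.232), Pdlim5 (0.232), Gpr183 (0.237) and Gpm6b (0.252). Cd7 came at rank 27, Dntt at 95, H2-Ab1 at 239 and Cd79b at 9370. When each profile was centred within its group, so that the LSD1i to NT step was taken out, the nearest were Bbs4, Tsc22d3, Angptl6, Rpusd4 and Ccdc28b, at 0.0648 to 0.102. Cd7 then ranked 7875, Dntt 9363, H2-Ab1 7161 and Cd79b 3074. This measure also grows with a gene's own spread within the groups, which was 0.52 for Cd7, 0.40 for Dntt and 0.29 for Cd74 (pooled SD, log2), so a low rank does not show another order of the libraries. Over all libraries the ranks rest on the contrast that chose the genes and are a description.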

How the data were processed

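RNA of CD8+ T cells was read in 9 libraries, 4 LSD1i and 5 NT, grouped by the labels. Per the labels' protocols, 1 microgram of total RNA was used per library, and the kit was SMARTer mRNA-Seq. Tools listed in the submitters' processing notes are featureCounts, STAR and edgeR, and the build is mm9; their versions and any use of strand are not stated. The authors deposited raw counts for 24391 genes (0 entries without a gene name), estimated counts after a batch correction of unstated method, and a table of LSD1i against NT that holds log2 fold changes, log2 mean expression, a test score and p-values. All batch-corrected values were whole numbers. From the authors' deposited table only fold changes and marks are used.

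Libraries of both count tables were matched by the genes at 0 in only 1 of them. Replicate sets were read from the ratio (log2) between corrected and raw values, which correlated at 0.755 to 0.98 within sets and at -0.962 to -0.79 between them (9618 genes). The labels do not say whether equal replicate numbers mark pairs. The correlations of same-numbered deviations were -0.148, 0.464, 0.124 and -0.379, each below that with the best other NT library. This does not show that the samples were unpaired, and the main test used no pairing.

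Genes were tested on the batch-corrected counts in edgeR 4.0.16 (R 4.3.3, limma 3.58.1) by its quasi-likelihood test, after TMM scaling and a low-count filter (filterByExpr by group, at least 10 counts and a total of 15), with p-values adjusted by Benjamini-Hochberg over all genes tested at 0.05. No degrees of freedom were set aside here for the authors' correction. The standard error of a log2 fold change is that coefficient, unshrunk and without sign, divided by the root of F. CPM uses the TMM-scaled library size of its table, and errors of CPM are standard deviations over libraries. Batch-corrected totals ran from 17457481 to 21031186 in LSD1i and from 15003752 to 27215488 in NT. A gene with no read in a library may still be present at up to 3 counts, and this covers counting error only. The code was tested on simulated data. DESeq2 1.42.0, other scaling, no filter, raw counts, either naming, a replicate set term, a replicate block, each set alone and leaving out each library were alternatives. Exon lengths and overlaps came from GENCODE M21 on GRCm38, not the build of the files, so they are approximate, and promoters from RefSeq (GRCm38.p6). The 10 genes, the lists and the tests were chosen with earlier results of these data known. Beyond the 10, each list names its called genes and, where fewer than 3 were called, those with the smallest p up to 3, plus the highest gene of lists for other cells. Likeness to Cd74 used genes whose mean log2 CPM reached 2 and names the nearest 5.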

Additional observations from a re-analysis of the deposited data

Results flagged for a closer look

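In 34 groups of 4 or 5 libraries, a library that stood apart from the rest of its group by Dixon's test was found in 2, where chance alone marks about 1 in 20 groups. Sppl2a, the protease that clears the last fragment of CD74, was at 118 CPM in NT 4, above the other NT libraries and below all LSD1i libraries. Pou2af1 was at 6.23 CPM in LSD1i 2, below the other LSD1i libraries and above all NT libraries. Without these libraries the calls of both genes held.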

How the results depend on the processing

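Against 397 genes called, DESeq2 called 656, raw counts with the names of the batch-corrected table gave 220 with the term for the replicate set and 84 without it, replicates 3 to 5 alone gave 117, replicates 1 and 2 alone gave 8, and raw counts under the raw names gave 0. Leaving out each library gave 219 to 432. Of the 10 genes, 6 were called, and 3 to 6 with each library left out, 3 on raw counts without the set term, 2 in replicates 3 to 5 alone, 0 in replicates 1 and 2 alone and 0 under the raw names. DESeq2 called H2-Ab1 and not Ebf1, and the calls of Cd79b and Ebf1 were lost without the low-count filter and with the replicate block on batch-corrected counts, that of Cd79b also with the block or the set term on raw counts, where Ebf1 did not pass the filter. Of the 118 listed other genes, 10 were called, against 17 by DESeq2, 4 on raw counts without the set term (Sppl2a, Pou2af1, Cd24a, Sox4, Pacsin1 and Cd8a were lost), 4 in replicates 3 to 5 alone, 0 in replicates 1 and 2 alone and 0 under the raw names. The difference between replicate sets was called for 0 genes, for 320 without the low-count filter, and for 0 to 401 with each library left out (401 without NT 2). The replicate block, with pairing by number not known, called 326 genes on batch-corrected and 352 on raw counts.

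The log2 fold change changed sign under the raw names for Cd22 (-0.43), Lgmn (-0.22), Sppl2a (-0.0136), Plcg2 (0.0535), Sox4 (-0.72), Lyl1 (0.0163), Irf8 (-0.0192), Il2ra (0.27), Gata3 (0.11), Zbtb16 (0.38), Cd8a (-0.0372) and Cd247 (-0.00172). In replicates 1 and 2 alone it did so for Cxcr4 (-0.0575), Cd81 (-0.10), Tcf3 (0.12), Kit (-0.32), Cd68 (-0.20), Ctla4 (-0.0153) and Rora (-0.32). Tcf3 also gave 0.16 on raw counts without the set term and -0.0947 to 0.0314 with each library left out (positive without LSD1i 3), and Zbtb46 gave -0.227 to 0.0167 (positive without NT 4). Cd68 gave -0.11 and -0.10 with the replicate block on batch-corrected and raw counts, and -0.0946 to 0.133 with each library left out (negative without LSD1i 1, LSD1i 3 and NT 5). Of these, Cd22, Lgmn, Sppl2a, Sox4 and Cd8a had been called. The raw names exchange 4 libraries between the groups by construction, and replicates 1 and 2 alone leave 2 libraries a group. For the other changes the cause was not tested.

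No member's fold moved by over 1.45 times when 1 library was left out. Depth limits Ciita, H2-Aa and Rag1, and Cd22 and Ebf1 in NT or LSD1i, where counts were few.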
